A study of Homo sapiens with 12 samples.

Results

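The 9 genes that set the cell's polyamine pool, ODC1, AMD1, SRM, SMS, SAT1, SMOX, AZIN1, OAZ1 and OAZ2, were followed in a prostate cancer cell line given or denied androgen, with and without knockdown of PIAS1. Every probe annotated to one of these genes was taken, which gave 14 of the 47323 probes on the array. Of these, 12 had a detection p-value under 0.01 on at least 3 arrays and were detected on all 12 arrays, and all 9 genes are therefore among the 10710 genes tested. SMS had 2 probes, SMOX and AZIN1 had 3 each, and the other genes had 1 each. The genes lie on chromosomes 2 (ODC1), 6 (AMD1), 1 (SRM), X (SMS and SAT1), 20 (SMOX), 8 (AZIN1), 19 (OAZ1) and 15 (OAZ2).

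The cells were VCaP, an androgen-responsive human line that carries the TMPRSS2-ERG fusion. Every culture was kept in 2.5% charcoal-stripped serum, which is low in steroids, for 100 h and carried an siRNA pool for 96 h. The 4 groups of 3 arrays were a pool against PIAS1 with 100 nM testosterone for 16 h (siPIAS1 + testosterone), the same pool without hormone (siPIAS1), a control pool with the same hormone treatment (siSCR + testosterone), and the control pool alone (siSCR). PIAS1 is a SUMO E3 ligase that acts with the androgen receptor and other transcription factors. One cell line and one siRNA pool per target limit the model, and the labels do not say that replicates were separate cultures, so the p-values below cover the spread among these samples alone. In bulk RNA, fewer cells of a type and less RNA per cell cannot be told apart.

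Polyamines (putrescine, spermidine and spermine) are small positively charged molecules that bind RNA and DNA, and growing cells need them. ODC1 makes putrescine from ornithine; AMD1 decarboxylates S-adenosylmethionine to give the aminopropyl donor; SRM and SMS then add aminopropyl groups to form spermidine and spermine. SAT1 acetylates spermidine and spermine for export or oxidation, SMOX oxidises spermine back to spermidine, the antizymes OAZ1 and OAZ2 bind ODC1 and send it to the proteasome, and AZIN1 is an inactive ODC1 homologue that sequesters antizyme. Prostate epithelium is known for unusually high polyamine synthesis and secretion, and ODC1 has long been studied there as an androgen-responsive gene.

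The 250 bases before the annotated start of ODC1, SRM, SMS and SAT1 are shown because the signals of these genes were higher with testosterone (RefSeq, GRCh38.p14, written 5′ to 3′ on the gene's own strand). They lie at chr2:10448328-10448577 (minus strand, ODC1), chr1:11060019-11060268 (minus strand, SRM), chrX:21940459-21940708 (plus strand, SMS) and chrX:23782923-23783172 (plus strand, SAT1). A further run of 30 bases comes from the window before a second annotated ODC1 start, at chr2:10448024-10448053 (minus strand), inside the first transcript's span. Capitals mark an E-box (CACGTG) or a CCAAT box (CCAAT, or ATTGG where it lies on the other strand).
ODC1: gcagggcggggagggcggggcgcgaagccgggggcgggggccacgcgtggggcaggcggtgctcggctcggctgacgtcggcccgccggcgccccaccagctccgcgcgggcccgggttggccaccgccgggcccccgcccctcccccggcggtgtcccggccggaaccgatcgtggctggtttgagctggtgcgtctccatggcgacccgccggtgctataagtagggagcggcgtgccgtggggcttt
SRM: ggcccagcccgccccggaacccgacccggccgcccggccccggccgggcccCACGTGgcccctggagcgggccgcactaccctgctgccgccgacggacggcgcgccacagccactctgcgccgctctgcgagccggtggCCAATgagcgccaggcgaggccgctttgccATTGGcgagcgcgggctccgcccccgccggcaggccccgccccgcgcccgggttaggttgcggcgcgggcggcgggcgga
SMS: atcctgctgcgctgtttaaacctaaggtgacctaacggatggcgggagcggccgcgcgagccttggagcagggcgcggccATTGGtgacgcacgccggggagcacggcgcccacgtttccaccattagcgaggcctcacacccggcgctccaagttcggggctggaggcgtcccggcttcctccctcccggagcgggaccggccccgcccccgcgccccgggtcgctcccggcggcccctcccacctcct
SAT1: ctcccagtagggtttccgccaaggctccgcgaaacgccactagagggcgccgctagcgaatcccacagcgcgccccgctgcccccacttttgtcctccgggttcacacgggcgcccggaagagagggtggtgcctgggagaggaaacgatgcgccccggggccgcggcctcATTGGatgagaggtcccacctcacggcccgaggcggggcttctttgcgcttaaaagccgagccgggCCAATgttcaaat
ODC1 second start: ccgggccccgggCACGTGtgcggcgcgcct
Of the 9 genes, 7 had a window that was searched, for 4 motifs on both strands. AZIN1 was not searched, and SMOX, also higher with testosterone, had no window in the promoter reference used. The E-box is the core sequence bound by MYC and MAX. It lay at base -199 in SRM and at base -29 before the second ODC1 start, and 6.34% of all 35116 windows of this length held one. The CCAAT box lay at -110 and -80 in SRM, at -170 in SMS and at -79 and -13 in SAT1. It also lay at -149 and -109 in OAZ1 and at -21 before a second annotated AMD1 start, in genes not called with testosterone. Of all windows, 32% held one. The steroid receptor half-site AGAACA, present in 12.4% of all windows, and TATAAA, present in 10.7%, were in none of the windows of the 7 genes. These are matches of letters in a short window and say nothing about what binds there or farther away.

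Levels below are log2 signals after background correction and quantile normalization, for each gene's brightest detected probe, and a difference is a difference of group means on that scale ± its standard error. Tests are limma's over all 10710 genes, with Benjamini-Hochberg adjusted p-values and a threshold of 0.05. Per array, 32.5% to 36.0% of probes were detected and median signals were 93.7 to 110. PIAS1 was lower in siPIAS1 than in siSCR cells by -1.21 ± 0.11 without hormone (adjusted p = 9.00e-06) and by -0.76 ± 0.11 with it (adjusted p = 1.50e-04). It was itself higher with testosterone, so that its level was 10.65 ± 0.16 in siPIAS1 + testosterone, 9.11 ± 0.13 in siPIAS1, 11.41 ± 0.08 in siSCR + testosterone and 10.32 ± 0.06 in siSCR (SD, n = 3 each). The androgen target FKBP5 was higher with testosterone by 3.98 ± 0.09 after siPIAS1 and by 4.01 ± 0.09 after siSCR, and KLK3, whose signal was not detected on any siSCR array, was at least 2.43-fold higher after siSCR (limma adjusted p = 1.93e-06), a bound set against the lowest signal detected on those arrays. Of 8 luminal prostate genes listed, 6 were measured and all 6 passed the detection filter, whereas none of the basal, blood or endothelial markers measured did and ACTA2 was the one fibroblast marker that did. Replicate 3 of siPIAS1 + testosterone stood apart: its mean correlation with both other arrays of that group was 0.978. The means of those arrays, which include replicate 3, were 0.9865 and 0.9862, and in the other groups the lowest was 0.992. SRM, OAZ2 and the second SMOX probe are given with and without replicate 3 below.

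Testosterone was associated with higher signals of enzymes at both ends of the pathway. After siSCR, 4 of the 9 genes were higher (ODC1, SMS, SAT1 and SMOX), none was lower, and 5 did not pass the test, in a comparison where 20% of all tested genes were called higher and 24.3% lower. After siPIAS1, 5 were higher (SRM in addition), AZIN1 was lower, and 3 did not pass, where 25.4% of all tested genes were called higher and 29.7% lower. The median difference of the 9 genes was 1.09 after siPIAS1, beside -0.032 over all genes, and 0.51 after siSCR, beside -0.019. Each of these comparisons has hormone-free arrays of its own.

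**Figure D1:**
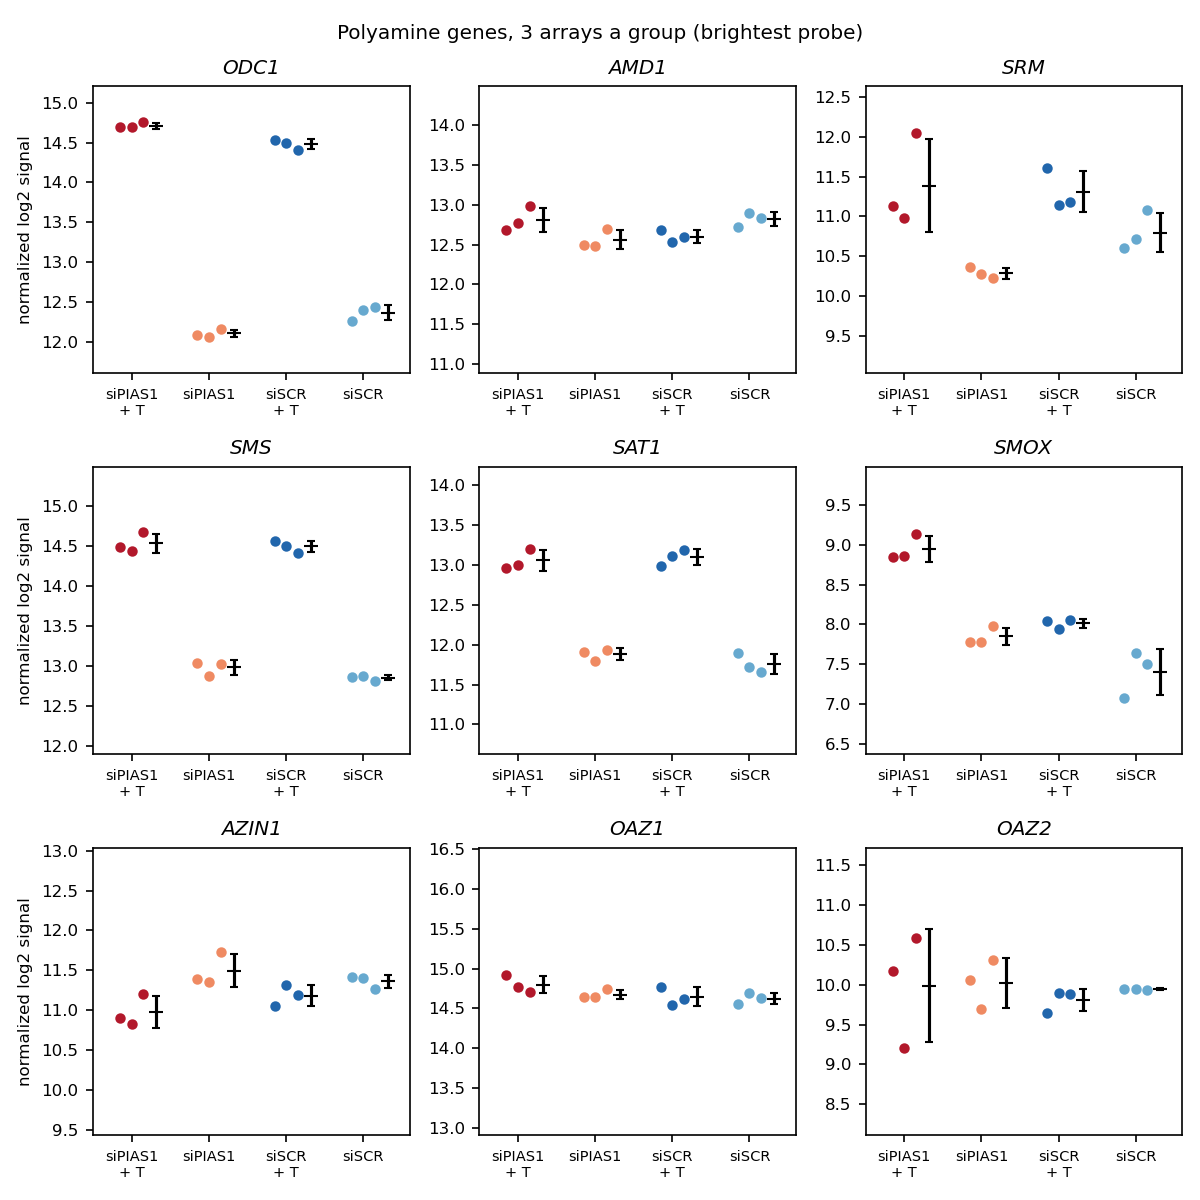
Normalized log2 signal of the 9 polyamine genes on each array (points), with the group mean ± SD (black, n = 3), for siPIAS1 + testosterone (T), siPIAS1, siSCR + T and siSCR; every panel spans the same number of log2 units. ODC1, SMS and SAT1 form a high and a low pair of groups split by hormone, SMOX is highest in siPIAS1 + T, and 1 siPIAS1 + T array is high for SRM.

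ODC1, which catalyses the first committed step, had the largest hormone difference of the 9 genes. Its log2 signal was 14.69, 14.69 and 14.76 in siPIAS1 + testosterone and 12.09, 12.06 and 12.16 in siPIAS1. It was 14.53, 14.50 and 14.41 in siSCR + testosterone and 12.26, 12.40 and 12.44 in siSCR. The 4 groups do not overlap: the hormone-treated groups lie far above the others, and the order is siPIAS1 + testosterone, siSCR + testosterone, siSCR, siPIAS1. ODC1 rose with testosterone by 2.61 ± 0.09 after siPIAS1 (6.10-fold, limma adjusted p = 2.00e-11) and by 2.12 ± 0.09 after siSCR (4.34-fold, limma adjusted p = 2.59e-10). Of all tested genes, 1.01% after siPIAS1 and 1.73% after siSCR had a difference of at least that size in either direction.

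The ODC1 rise after siPIAS1 exceeded that after siSCR by 0.49 ± 0.13 on the log2 scale (95% interval 0.22 to 0.76, limma adjusted p of the difference = 0.0254), where 4.88% of all tested genes were called higher and 5.06% lower. ODC1 was the one gene of the 9 called in this comparison. Its 2 parts had opposite signs and neither passed alone as reported: ODC1 was higher by 0.23 ± 0.09 in siPIAS1 than in siSCR cells with hormone (limma adjusted p = 0.0585) and lower, at -0.26 ± 0.09, without it (limma adjusted p = 0.0743). The part with hormone passed in 4 of 24 alternatives and the part without hormone in 6 of 24. In the scanner signals before normalization, ODC1 read 22466, 23805 and 22688 in siPIAS1 + testosterone and 4105, 3768 and 4278 in siPIAS1. The same signal was 23351, 23966 and 22494 in siSCR + testosterone and 5602, 5778 and 5793 in siSCR. Before normalization the hormone-treated groups overlap, while siPIAS1 stays below siSCR on every array. The median signal of the 408 probes over 10000 on all arrays was 20340 in siPIAS1 + testosterone, 23660 in siPIAS1, 25389 in siSCR + testosterone and 29561 in siSCR. These bright probes as a class were thus dimmer in the siPIAS1 groups, and also dimmer with testosterone. The ODC1 probe is not among them, since it read under 10000 without hormone, and whether their shift bears on it was not tested. With scaling to each array's 75th percentile in place of quantile normalization, the ODC1 difference between both responses was 0.36 (limma adjusted p = 0.155), and siPIAS1 minus siSCR with hormone turned to -0.0087. The call was also lost without any one of 6 arrays, namely siSCR replicate 2 or 3, siSCR + testosterone replicate 2 or 3, and siPIAS1 replicate 1 or 2, with adjusted p from 0.0547 to 0.0755 and differences from 0.46 to 0.50.

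AMD1, the enzyme that supplies the aminopropyl donor, did not pass the test in any comparison as reported. Its log2 signal was 12.68, 12.77 and 12.98 in siPIAS1 + testosterone and 12.50, 12.49 and 12.70 in siPIAS1. It was 12.69, 12.53 and 12.59 in siSCR + testosterone and 12.72, 12.89 and 12.84 in siSCR. The arrays of siPIAS1 + testosterone and siPIAS1 overlap, while all siSCR + testosterone arrays lie below the siSCR arrays. The testosterone difference was 0.25 ± 0.11 after siPIAS1 (limma adjusted p = 0.0644) and -0.22 ± 0.11 after siSCR (limma adjusted p = 0.120), neither of which passed. The difference between both responses was 0.46 ± 0.15 (95% interval 0.14 to 0.79, limma adjusted p = 0.0687), close to the ODC1 value in size, and it passed in 4 of 23 alternatives. Without hormone, siPIAS1 minus siSCR was -0.25 ± 0.11 (limma adjusted p = 0.141), with siPIAS1 arrays all below siSCR arrays, and passed in 3 of 24 alternatives. With hormone it was 0.21 ± 0.11 (limma adjusted p = 0.148) and passed in none.

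SRM, spermidine synthase, had 1 array far above the others of its group. Its log2 signal was 11.13, 10.98 and 12.05 in siPIAS1 + testosterone and 10.36, 10.27 and 10.23 in siPIAS1. It was 11.60, 11.15 and 11.18 in siSCR + testosterone and 10.60, 10.72 and 11.08 in siSCR. The groups do not overlap between hormone and no hormone under either siRNA, but replicate 3 of siPIAS1 + testosterone was 0.997 above the mean of its group's other arrays. SRM rose with testosterone after siPIAS1 by 1.10 ± 0.23 (2.14-fold, limma adjusted p = 0.00101), and without that array by 0.77 (limma adjusted p = 7.99e-04). After siSCR the difference was 0.51 ± 0.23 (limma adjusted p = 0.0829), and without that array, which also sets the shared spread, the same 0.51 had a limma adjusted p of 0.00595. The difference between both responses was 0.59 ± 0.32 (limma adjusted p = 0.255), and without that array 0.25 (limma adjusted p = 0.429).

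SMS, spermine synthase, rose with hormone to a like extent under both siRNAs. Its brighter probe read 14.49, 14.44 and 14.68 in siPIAS1 + testosterone and 13.04, 12.88 and 13.03 in siPIAS1. The same probe read 14.56, 14.51 and 14.42 in siSCR + testosterone and 12.86, 12.88 and 12.82 in siSCR. The 6 hormone-treated arrays all lie above the 6 others, and within each set the siRNA groups overlap. SMS rose by 1.56 ± 0.10 after siPIAS1 (2.94-fold, limma adjusted p = 1.06e-08) and by 1.65 ± 0.10 after siSCR (3.13-fold, limma adjusted p = 6.51e-09). The difference between both responses was -0.089, with a 95% interval of -0.38 to 0.20. The second SMS probe gave 1.56 after siPIAS1 and 1.54 after siSCR.

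Of the breakdown enzymes, SAT1, the acetyltransferase that limits the rate of polyamine catabolism, rose with hormone as well. Its log2 signal was 12.966, 13.004 and 13.204 in siPIAS1 + testosterone and 11.91, 11.79 and 11.94 in siPIAS1. It was 12.99, 13.11 and 13.19 in siSCR + testosterone and 11.90, 11.72 and 11.66 in siSCR. Again all 6 hormone-treated arrays are above the 6 others, and the siRNA groups overlap within each set. The rise was 1.18 ± 0.10 after siPIAS1 (2.26-fold, limma adjusted p = 4.85e-07) and 1.34 ± 0.10 after siSCR (2.53-fold, limma adjusted p = 1.42e-07). The difference between both responses was -0.16, with a 95% interval of -0.48 to 0.16.

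SMOX, spermine oxidase, which yields hydrogen peroxide as it acts, was the one member called between the siRNA pools, both with and without hormone. Its brighter detected probe read 8.84, 8.85 and 9.13 in siPIAS1 + testosterone and 7.78, 7.79 and 7.98 in siPIAS1. The same probe read 8.04, 7.94 and 8.05 in siSCR + testosterone and 7.08, 7.64 and 7.50 in siSCR. All siPIAS1 + testosterone arrays lie above every other array, all siSCR arrays lie lowest, and siPIAS1 and siSCR + testosterone overlap between them. With hormone, SMOX was higher in siPIAS1 + testosterone than in siSCR + testosterone by 0.93 ± 0.14 (1.91-fold, limma adjusted p = 2.17e-04), a call kept in all 24 alternatives, with values of 0.61 to 1.05. In that comparison 16.3% of all tested genes were called higher and 17.2% lower. Without hormone it was higher in siPIAS1 than in siSCR by 0.44 ± 0.14 (1.36-fold, limma adjusted p = 0.0470), where 7.56% of all tested genes were called higher and 5.77% lower (5.79% and 7.64% with 75th percentile scaling).

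That last call was close to the threshold and held in 11 of 24 alternatives: without siSCR replicate 1, the lowest array, the difference was 0.28 (limma adjusted p = 0.209), and in the authors' normalized values it was 0.21 (limma adjusted p = 0.1005). The second detected SMOX probe, tested with every detected probe as a feature, read 8.89, 8.95 and 9.52 in siPIAS1 + testosterone, 7.67, 7.60 and 7.65 in siPIAS1, 7.94, 7.88 and 8.03 in siSCR + testosterone, and 6.96, 6.90 and 6.90 in siSCR. Its 4 groups do not overlap. It was higher in siPIAS1 than in siSCR by 1.17 with hormone and by 0.72 without (limma adjusted p = 0.00580), and leaving out each of the 12 arrays in turn, a repeat chosen after seeing the data, kept the call without hormone every time (0.71 to 0.74). SMOX rose with testosterone by 1.09 ± 0.14 after siPIAS1 (2.13-fold, limma adjusted p = 1.35e-05) and by 0.61 ± 0.14 after siSCR (1.52-fold, limma adjusted p = 0.00233), and the second probe gave 1.48 after siPIAS1 and 1.03 after siSCR. In the authors' normalized values these SMOX differences were 0.71 after siPIAS1 (limma adjusted p = 1.12e-05) and 0.31 after siSCR (limma adjusted p = 0.00680). The difference between both responses was 0.49 ± 0.19 (95% interval 0.071 to 0.90, limma adjusted p = 0.124) and 0.45 by the second probe (limma adjusted p = 0.173), so a larger response after siPIAS1 did not pass the test. SMOX passed in this comparison in 2 of 23 alternatives. They were the authors' values (0.40, limma adjusted p = 0.0352) and the fit without siSCR replicate 1 (0.65, limma adjusted p = 0.0346). Without replicate 3 of siPIAS1 + testosterone, the second probe gave 0.98 between the siRNAs with hormone and 1.28 for testosterone after siPIAS1. Its difference between both responses was then 0.25 (limma adjusted p = 0.184). The third SMOX probe was not detected on any array.

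**Figure D2:**
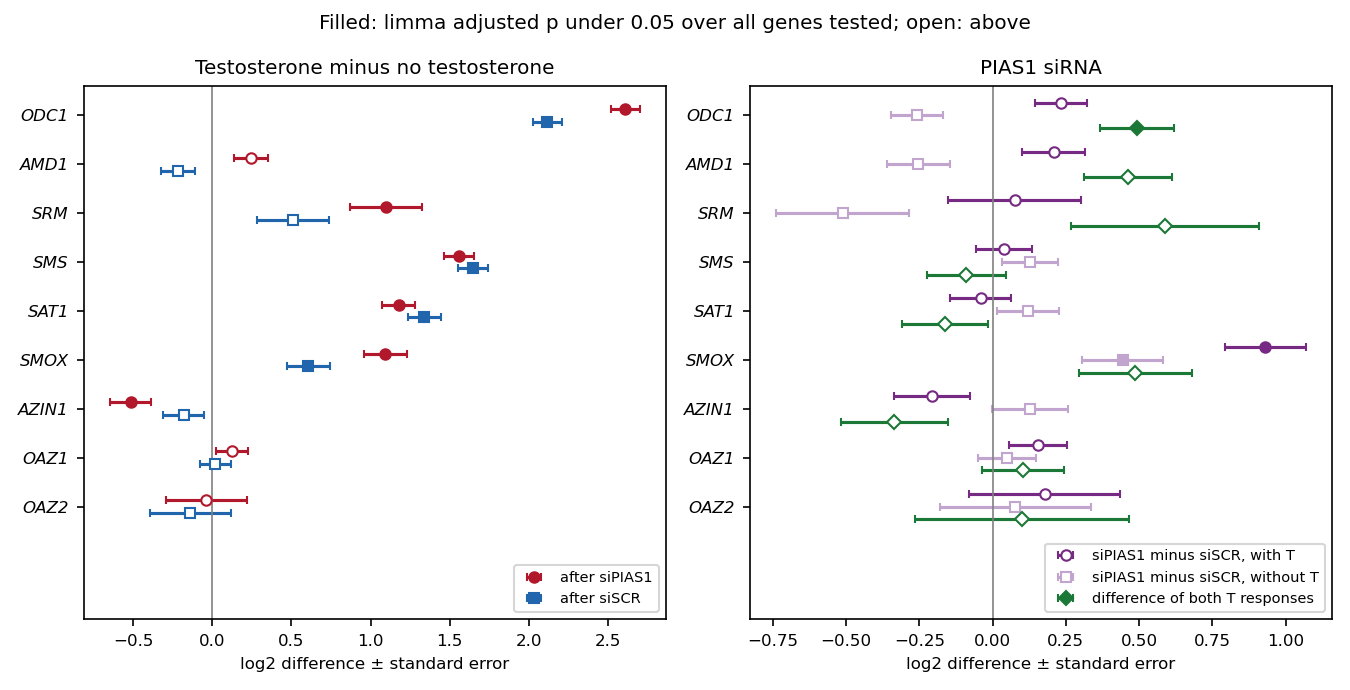
Log2 differences ± standard error of the 9 genes, testosterone minus no testosterone after each siRNA (left) and siPIAS1 minus siSCR with and without testosterone, with the difference of both testosterone responses (right); filled points have a limma adjusted p under 0.05. The synthesis enzymes ODC1 and SMS and the breakdown enzymes SAT1 and SMOX lie right of 0 for testosterone, and SMOX alone is filled between the siRNAs.

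The regulators of ODC1 protein did not share the hormone rise. AZIN1, the antizyme inhibitor, had log2 signals of 10.90, 10.83 and 11.20 in siPIAS1 + testosterone and 11.40, 11.35 and 11.73 in siPIAS1 by its brighter probe. The same probe read 11.05, 11.32 and 11.19 in siSCR + testosterone and 11.42, 11.40 and 11.27 in siSCR. The hormone-treated arrays lie below the others after siPIAS1 and overlap them after siSCR. AZIN1 fell with testosterone after siPIAS1 at -0.52 ± 0.13 (limma adjusted p = 0.00391), and the difference after siSCR was -0.18 ± 0.13 (limma adjusted p = 0.283). The second detected AZIN1 probe did not repeat this: it gave 0.030 after siPIAS1 (limma adjusted p = 0.868) and 0.18 after siSCR. With the mean over both probes the value after siPIAS1 was -0.24 (limma adjusted p = 0.0865). The third probe of AZIN1 was detected on 1 array and was not tested.

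**Figure D3:**
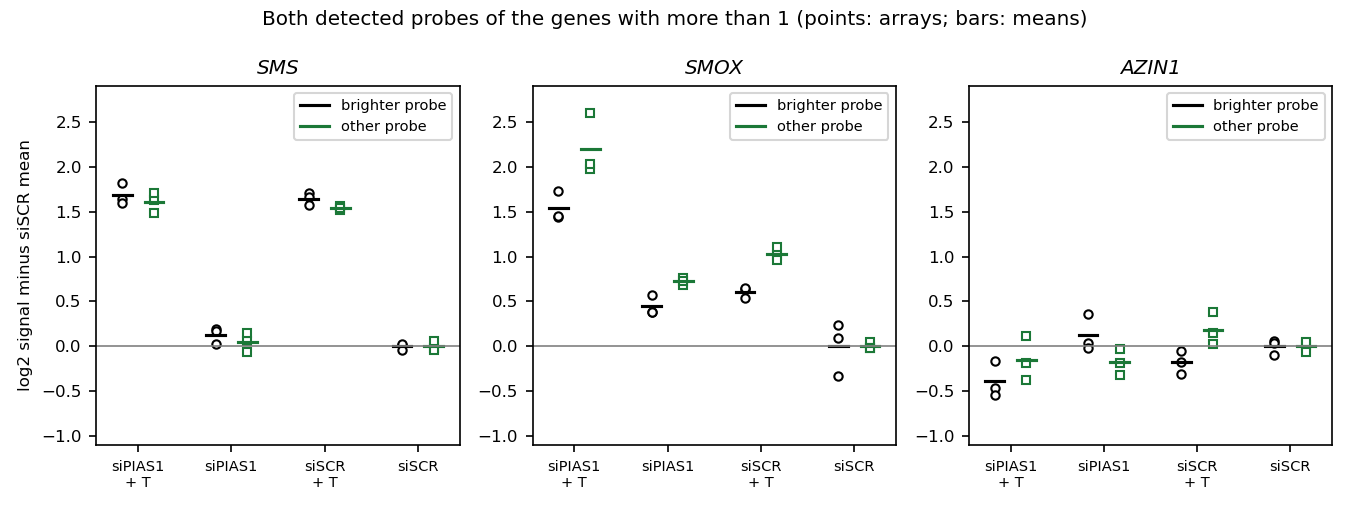
Log2 signal of both detected probes of SMS, SMOX and AZIN1 on each array (points), each probe set to 0 at its own siSCR mean, with group means (bars), for siPIAS1 + testosterone (T), siPIAS1, siSCR + T and siSCR. Both SMS probes and both SMOX probes keep the same order of the high groups, and the AZIN1 probes have opposite signs for testosterone.

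The antizyme OAZ1 averaged 14.80 ± 0.11 in siPIAS1 + testosterone, 14.67 ± 0.06 in siPIAS1, 14.64 ± 0.12 in siSCR + testosterone and 14.62 ± 0.07 in siSCR (SD, n = 3 each). Its 4 groups overlap, and its testosterone difference was 0.13 ± 0.10 after siPIAS1 and 0.021 ± 0.10 after siSCR. OAZ2, a second antizyme, averaged 9.98 ± 0.71, 10.02 ± 0.31, 9.81 ± 0.14 and 9.94 ± 0.01 in the same groups. Its 3 siPIAS1 + testosterone arrays read 10.17, 9.20 and 10.59, a spread that spans all other arrays. Without replicate 2, the lowest, OAZ2 was higher in siPIAS1 than in siSCR with hormone by 0.57, a call at limma adjusted p = 0.0206 (0.18 with all arrays), and without replicate 3, the highest, that difference was -0.12 (limma adjusted p = 0.702). Its testosterone difference after siPIAS1 was 0.35 without replicate 2, -0.34 without replicate 3 and -0.037 with all arrays, none of which passed. For OAZ2 the difference between both responses was 0.49 without replicate 2, -0.20 without replicate 3 and 0.10 with all arrays, none of which passed either. With all arrays neither antizyme passed the test in any of the 5 comparisons, and the standard error of the OAZ2 differences was 0.26.

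Across the siRNA comparisons, the other 8 genes did not pass. SRM was 0.075 higher in siPIAS1 than in siSCR with hormone (limma adjusted p = 0.822), and without replicate 3 of siPIAS1 + testosterone the difference was -0.26 (limma adjusted p = 0.209). The median siPIAS1 minus siSCR difference of the 9 genes was 0.15 with hormone, beside -0.00099 over all genes, and 0.077 without, beside -0.0044. The median difference between both responses was 0.10, beside -0.0097. SRM had the largest difference without hormone that did not pass, at -0.51 ± 0.23 (limma adjusted p = 0.162), with siPIAS1 arrays all below siSCR arrays. Without replicate 3 of siPIAS1 + testosterone the same -0.51 had a limma adjusted p of 0.0161. Without hormone ODC1, AMD1 and SRM, 3 genes of synthesis, all had lower means in siPIAS1 than in siSCR, and with 75th percentile scaling all 3 were called, at -0.37, -0.39 and -0.61, beside SMOX as the 1 gene called higher. With that scaling 5.79% of all tested genes were called higher and 7.64% lower. The median over all genes was then -0.053, beside -0.0044 as reported. SAT1, OAZ1 and OAZ2, above 0 as reported, turned to -0.011, -0.12 and -0.011, while SMOX and AZIN1 stayed above 0. Bright probes as a class were dimmer in siPIAS1 than in siSCR, as given with ODC1 above. Whether that shift bears on these genes was not tested. SMS, the fourth gene of synthesis, had 0.13 ± 0.10 without hormone (limma adjusted p = 0.424) and -0.014 with that scaling.

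**Figure D4:**
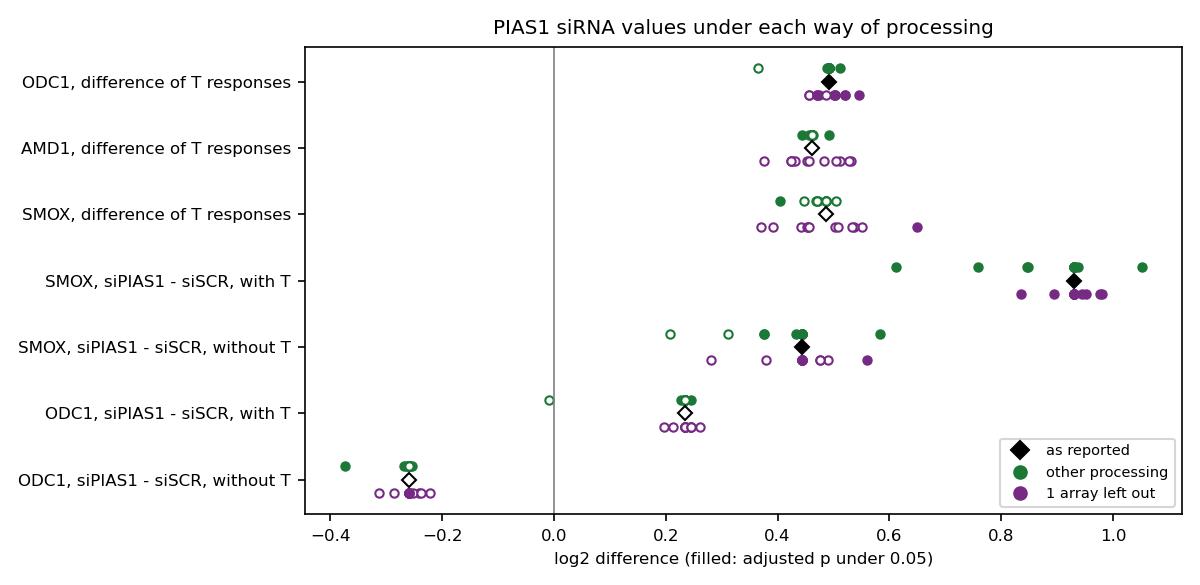
Log2 differences of ODC1, AMD1 and SMOX that involve the PIAS1 siRNA, as reported (diamonds), under other ways of processing (green) and with 1 array left out (purple); filled symbols have a limma adjusted p under 0.05. SMOX with testosterone is filled throughout, while every other row, of SMOX as of ODC1 and AMD1, holds both filled and open symbols.

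The genes whose pattern over the 12 arrays was most like a member's were ranked by the root mean square difference of their centred log2 signals, among 10709 other genes. For ODC1 they were TMEM87B (0.141), MME, a cell surface peptidase (0.173), and TUBA3D, a tubulin (0.181). For SAT1 they were TP53INP2 (0.0907), GREB1, a steroid hormone target (0.103), and ATP6V0A2, a proton pump subunit (0.103). SMOX was most like MAPRE3, which binds microtubule ends (0.157), ENDOD1 (0.157) and UNC13B (0.169). The 3 nearest to AMD1 were ERAL1 (0.0747), HNRNPA3, an RNA-binding protein (0.0813), and E2F6, a transcriptional repressor (0.0835). AMD1 itself spans 0.25 between its group means, so its neighbours are genes that also varied little. ENDOD1 and UNC13B were called in the difference between both testosterone responses (limma adjusted p = 0.0212 and 0.0358), and SMOX was not (limma adjusted p = 0.124). Whether these genes differ from SMOX in that respect was not tested.

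The enzymes and carriers that feed the pathway or take its products were called in both directions. Of 39 genes listed, 37 had a probe in the annotation used here and 28 were tested. With testosterone 9 of the 28 (32.1%) were higher and 8 (28.6%) lower after siPIAS1, where 25.4% of all tested genes were called higher and 29.7% lower. After siSCR 5 (17.9%) were higher and 9 (32.1%) lower, where the shares over all genes were 20% and 24.3%. The median differences were 0.013 after siPIAS1 and -0.085 after siSCR. Between the siRNAs, 8 (28.6%) were higher and 6 (21.4%) lower in siPIAS1 with hormone, beside 16.3% and 17.2% of all genes. Of those 6, SLC18B1 (-0.34, limma adjusted p = 0.0424) was detected on no array of either group, so its call is no support for a direction. Without hormone 1 was higher (GNMT) and 2 were lower (AHCY and ATP13A3), beside 7.56% and 5.77% of all genes. The difference between both responses was called higher for ATP13A2 and lower for MTAP, beside 4.88% and 5.06% of all genes. These 28 genes were not followed through the alternatives. Whether their calls hold there, or without replicate 3 of siPIAS1 + testosterone, was not tested. The genes that serve only to complete a count were named after their values were seen, namely MAT2B, ASL, DOHH, SLC3A2, ATP13A3, OAZ3 and SAT2.

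Among genes of methionine and S-adenosylmethionine, 1 of 4 tested was higher (GNMT) and 2 were lower under each siRNA, AHCY and MAT2B after siPIAS1 and AHCY and MAT2A after siSCR. GNMT, a glycine methyltransferase that consumes S-adenosylmethionine, averaged 10.13 ± 0.50 in siPIAS1 + testosterone, 7.35 ± 0.20 in siPIAS1, 9.35 ± 0.11 in siSCR + testosterone and 6.54 ± 0.13 in siSCR. It rose with hormone by 2.78 ± 0.19 after siPIAS1 and 2.81 ± 0.19 after siSCR, and was higher in siPIAS1 than in siSCR both with hormone (0.78, limma adjusted p = 0.00787) and without (0.81, limma adjusted p = 0.0145). AHCY, which clears S-adenosylhomocysteine, fell with hormone at -0.41 after siPIAS1 and -0.38 after siSCR. MAT2A, which makes S-adenosylmethionine, fell after siSCR at -0.25 (limma adjusted p = 0.0386) and had -0.16 after siPIAS1, which did not pass.

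In the salvage of methylthioadenosine, the by-product of SRM and SMS, 1 of 5 genes was higher and 2 were lower with hormone under each siRNA. MTAP, the phosphorylase that opens this salvage, averaged 8.45 ± 0.25 in siPIAS1 + testosterone, 9.44 ± 0.08 in siPIAS1, 9.39 ± 0.05 in siSCR + testosterone and 9.78 ± 0.04 in siSCR. It fell with hormone at -0.997 ± 0.12 after siPIAS1 and -0.38 ± 0.12 after siSCR, and the difference between both responses was -0.61 ± 0.17 (limma adjusted p = 0.0316). APIP, a dehydratase of the same route, rose by 0.54 after siPIAS1 and 0.64 after siSCR. MRI1, an isomerase, fell at -0.42 and -0.41 under the same siRNAs.

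Of 6 genes of arginine and ornithine tested, 2 were higher (OAT and ASL) and 1 lower (ARG2) with hormone after siPIAS1, and OAT was higher and ARG2 lower after siSCR. ARG2, the mitochondrial arginase that yields ornithine, averaged 8.53 ± 0.08 in siPIAS1 + testosterone, 10.02 ± 0.15 in siPIAS1, 8.09 ± 0.12 in siSCR + testosterone and 9.92 ± 0.07 in siSCR. It fell at -1.49 ± 0.10 after siPIAS1 and -1.83 ± 0.10 after siSCR (limma adjusted p = 4.30e-08 and 5.79e-09). OAT, which interconverts ornithine and glutamate semialdehyde, rose by 0.51 after siPIAS1 and 0.62 after siSCR. Hypusine is a modification that EIF5A receives from spermidine. Of its 3 genes tested, DOHH was called higher after siPIAS1, by 0.58, and none was called after siSCR, where the unadjusted p-values were all above 0.05.

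Among 7 transport genes tested, 1 was higher (SLC3A2) and 3 lower with hormone after siPIAS1, and 1 was higher (SLC3A2) and 4 lower after siSCR. SLC18B1, a vesicular polyamine carrier, was not detected on any of the 6 hormone-treated arrays and was at least 2.20-fold lower with hormone after siPIAS1 and at least 2.43-fold lower after siSCR. It passed the detection filter through its hormone-free arrays alone, so its place among the lower genes is no support for a direction. SLC7A2, a carrier of cationic amino acids, fell at -0.67 after siPIAS1 and -0.42 after siSCR, and SLC12A8 fell at -0.33 and -0.57. ATP13A2, a lysosomal polyamine exporter, averaged 7.80 ± 0.27 in siPIAS1 + testosterone, 7.50 ± 0.18 in siPIAS1, 7.22 ± 0.04 in siSCR + testosterone and 7.60 ± 0.08 in siSCR. Its testosterone difference was 0.31 ± 0.13 after siPIAS1, which did not pass, and -0.38 ± 0.13 after siSCR, and the difference between both was 0.68 ± 0.19 (limma adjusted p = 0.0340). Of 3 further enzymes and inhibitors tested, PAOX, OAZ3 and SAT2 were higher with hormone after siPIAS1, and PAOX alone after siSCR. PAOX, which oxidises acetylated polyamines, was higher with hormone by 1.32 ± 0.12 after siPIAS1. After siSCR it was higher by 0.95 ± 0.12, with 2 of 3 siSCR arrays detected.

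**Figure D5:**
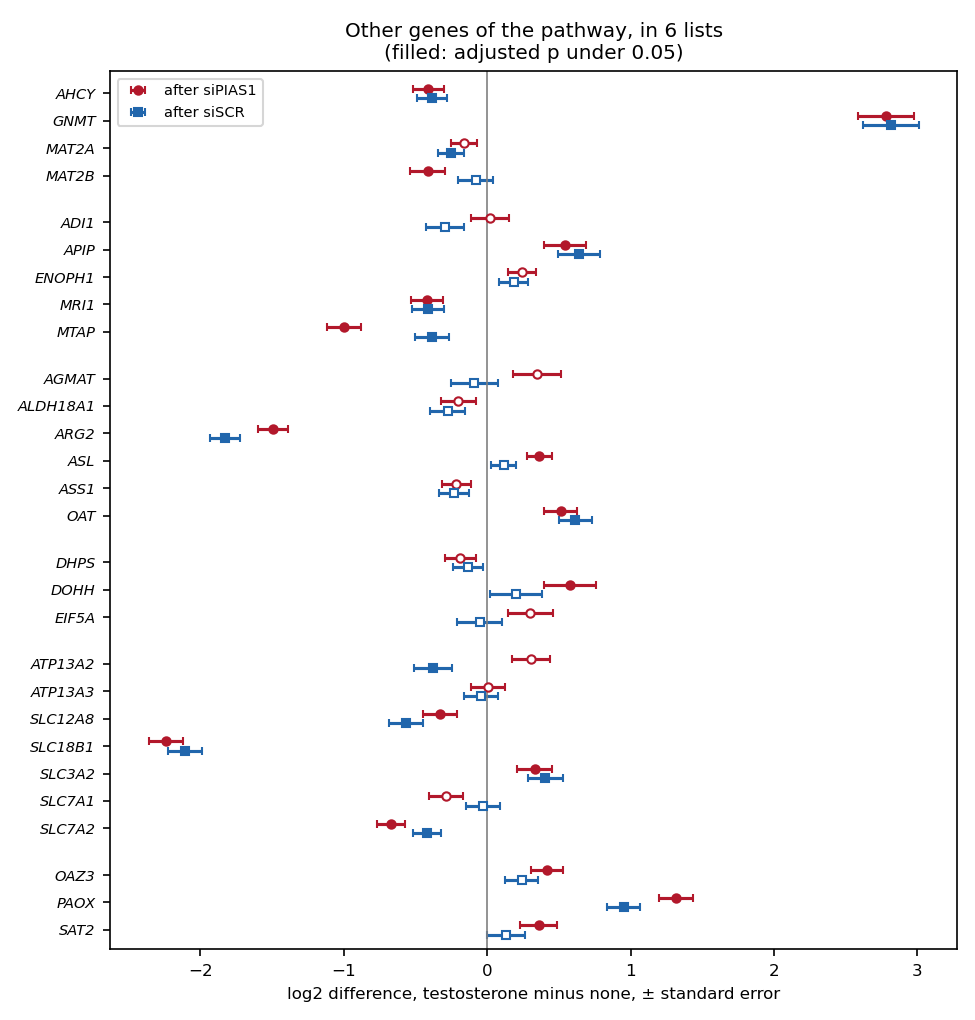
Log2 differences, testosterone minus none, ± standard error, of 28 other pathway genes in 6 lists (from the top: methionine, methylthioadenosine salvage, arginine and ornithine, hypusine, transport, further enzymes) after siPIAS1 (red) and siSCR (blue); filled points have a limma adjusted p under 0.05. GNMT lies farthest right and ARG2 and SLC18B1 farthest left; the SLC18B1 values are fitted from undetected signals and are no bound.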

How the data were processed

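RNA of 12 VCaP samples was hybridised to Illumina bead arrays. The authors deposited the scanner intensity of each probe and array without normalization, with a detection p-value beside it, per the file headers, and a table of normalized log2 values, deposited by the authors. The submitters' processing notes name lumi, without a version. From the intensities, background correction, quantile normalization and log2 were done with limma 3.58.1 (neqc, offset 16) under R 4.3.3. Of 47323 probes, 30113 had 1 gene symbol, 17202 had none and 8 had several in the platform annotation. Probes with a detection p-value under 0.01 on at least 3 arrays were kept, and the brightest stood for its gene. limma's lmFit and eBayes fitted 4 group means over all 12 arrays, with Benjamini-Hochberg adjustment over 10710 genes. The fit was tested on simulated data. The 9 genes were all named in every comparison; from each pathway list up to 3 called genes with the smallest p for testosterone after siSCR and up to 2 for the difference between both responses were named. The genes and lists were chosen with earlier results of these data known. Alternatives covered scaling, background, filter, probe choice, array weights, a replicate block and leaving out each array. They were followed for the 9 genes, not for genes of the pathway lists. Slide as a block was not run, since the files used here name no slide.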

Additional observations from a re-analysis of the deposited data

Results flagged for a closer look

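ODC1 was singled out because its response to testosterone differed between both siRNA pools by a direct test: the rise after siPIAS1 exceeded that after siSCR by 0.49 on the log2 scale, over 3 arrays a group, with the limits given beside that result above.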

How the results depend on the processing

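With testosterone, the number of the 9 genes called was 5 to 7 after siPIAS1 (6 as reported) and 4 to 6 after siSCR (4 as reported) over the alternatives run. Between the siRNAs without hormone, where 1 gene was called (SMOX, higher), the count was 4 with 75th percentile scaling or array weights, 3 with the 6 arrays compared alone, 2 in the authors' values, and 0 with no filter or with every detected probe a feature, and 0 to 3 leaving out an array. The 2 in the authors' values were ODC1 and AMD1, both lower, without SMOX. With no background correction the 1 gene called was ODC1, lower, in place of SMOX. With hormone, where 1 was called, it was 2 with no background correction, an offset of 50 or the authors' values, 4 with array weights, and 1 to 2 leaving out an array. For the difference between both responses, where 1 was called, it was 2 with no background correction, 3 in the authors' values or with array weights, and 0 to 2 leaving out an array. The replicate block gave 6 and 4 genes for testosterone after siPIAS1 and siSCR and 1 in each other comparison, as without it; same-numbered arrays did not deviate together (r over 0.1 in 3 of 18 pairs, range -0.26 to 0.19). Every value that turned sign, 18 of them besides those from leaving out an array, belongs to a difference that had not passed as reported. With 75th percentile scaling these were, for siPIAS1 minus siSCR with hormone, ODC1 -0.0087, SRM -0.055, SMS -0.22 and OAZ1 -0.094; without hormone, SMS -0.014, SAT1 -0.011, OAZ1 -0.12 and OAZ2 -0.011; and for testosterone, OAZ1 -0.014 after siSCR and OAZ2 0.077 after siPIAS1. With the mean over probes AZIN1 was 0.0019 for testosterone after siSCR and -0.026 between the siRNAs without hormone. In the authors' values OAZ1 was -0.036 for testosterone after siSCR and SMS -0.0089 between the siRNAs with hormone. With array weights OAZ1 was -0.029 for testosterone after siSCR, SRM -0.11 and OAZ2 -0.084 between the siRNAs with hormone, and OAZ2 -0.15 for the difference between both responses. Leaving out an array, the ranges that crossed 0 were, for testosterone, OAZ1 -0.043 to 0.073 after siSCR and OAZ2 -0.34 to 0.35 after siPIAS1; between the siRNAs, OAZ2 -0.068 to 0.24 without hormone and, with it, SRM -0.26 to 0.28, SMS -0.030 to 0.086, SAT1 -0.11 to 0.0048 and OAZ2 -0.12 to 0.57; and OAZ2 -0.20 to 0.49 for the difference between both responses. The cause of these shifts was not tested. The number of arrays limits the precision.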
